A study of Homo sapiens with 16 samples.

Results

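GFI1 and GFI1B are the only members described here, 2 of the 60603 genes in the deposited count table, chosen by their gene names in all 16 RNA-sequencing libraries. The libraries came from 2 human acute myeloid leukaemia lines. SKNO-1 carries the RUNX1-RUNX1T1 fusion and was grown with 10 ng/mL GM-CSF. U-937 has a monocytic character, and the labels give no cytokine for it. A treatment lasted 24 h in every case, and each line had 4 groups of 2 libraries: DMSO (the solvent control), all-trans retinoic acid (ATRA, 0.1 µM), Corin (0.1 µM), and ATRA with Corin (0.1 µM of either), called both agents below. The labels name no engineered allele. Corin inhibits the CoREST complex, a nuclear corepressor that pairs the histone demethylase LSD1 (gene KDM1A) with the histone deacetylases HDAC1 and HDAC2. By its title, the study concerned CoREST, p300 and retinoic acid signalling in this leukaemia.

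GFI1 and GFI1B are related zinc finger repressors of blood cells. Each carries at its amino end a short SNAG domain that resembles the tail of histone H3 and docks into LSD1, which brings CoREST to the genes they bind. GFI1 is best known in lymphoid, stem and neutrophil precursor cells, and GFI1B in erythroid and megakaryocytic cells. Both are also known to repress their own and each other's genes. Inhibitors of LSD1 can dislodge it from the SNAG domain, and this displacement is well known in myeloid leukaemia cells.

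GFI1 (ENSG00000162676.12) lies on chromosome 1 at 92473043 to 92486925 of hg38, on the minus strand. GFI1B (ENSG00000165702.14) lies on chromosome 9 at 132944000 to 132991687, on the plus strand. The coordinates are from GENCODE release 44. The first part of the annotated GFI1B locus overlaps the opposite-strand gene TSC1 (132891348 to 132946874), while the main GFI1B transcript starts well beyond that overlap, at 132978694. The strand setting used in counting is not given in the sources used here, so reads of the overlapping pair could be shared, and TSC1 is given beside GFI1B below.

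Promoter sequences from RefSeq (GRCh38.p14) are shown because both proteins are known to bind the 4-base core AATC and to act on each other's promoters. RefSeq gave 3 windows for GFI1 and 2 for GFI1B, each of 300 bases, from 250 before to 50 after a transcript start. For GFI1 the stretch printed is the 250 bases before the start of the main transcript (chr1:92486926-92487175, minus strand), which are intergenic. For GFI1B it is 27 bases shortly before the start of its main transcript (chr9:132978641-132978667, plus strand). This stretch lies within the span of a longer GFI1B transcript in GENCODE. Another GFI1B transcript, of 1870 bases, starts at 132978651, inside the stretch. Capitals mark AATC or its reverse complement GATT.
GFI1: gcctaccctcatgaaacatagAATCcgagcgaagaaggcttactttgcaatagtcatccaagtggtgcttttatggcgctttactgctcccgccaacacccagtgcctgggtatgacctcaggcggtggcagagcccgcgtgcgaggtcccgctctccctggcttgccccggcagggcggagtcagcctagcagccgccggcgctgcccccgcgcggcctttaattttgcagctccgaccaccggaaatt
GFI1B: ttgacacaaatAATCaGATTgaaAATC

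The GFI1B window holds 4 cores within 31 bases, of which 3 are printed and the other lies directly before them. The last core ends 27 bases before the start of the main transcript. Windows with 4 or more cores make up 9.98% of all 34943 RefSeq windows. The GFI1 windows hold 1 core each (69.0% of all windows hold at least 1), and the other GFI1B window holds 2 (40.3% hold at least 2). The core was looked for after the sequences had been read. Of the 4 motifs searched first, on both strands, none occurs in any of the 5 windows. They were AATCAC (in 10.2% of windows), AATCACNGC (1.03%), an exact AGGTCA repeat with a 5-base spacer (0.00572%) and the GATA motif AGATAA (10.4%). The exact repeat, 1 form of the retinoic acid receptor element, is in 2 of the 34943 windows, so its absence here says little. Other spacings and inexact repeats were not searched. A match is a description of letters and shows no binding, and AATC is contained in the first pair of motifs.

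The libraries held 32773369 to 37817314 estimated gene counts in SKNO-1 and 28414479 to 37563237 in U-937. The line labels fitted their marker genes: RUNX1T1, whose reads in SKNO-1 can come from the fusion, was at 114 ± 26.8 CPM (library-size-scaled counts, with edgeR's TMM factors; SD, n = 2) with DMSO in SKNO-1 and at 0.0151 in U-937, while HOXA9 was at 0 in SKNO-1 and at 53.8 ± 2.73 in U-937. The 2 SKNO-1 DMSO libraries differed from each other more than any other SKNO-1 pair: the SD of their log2 difference over genes was 0.361, against 0.108 to 0.132 in the other pairs. That difference followed GC content (Pearson's r = 0.811 across 9338 genes, which are not independent). Where leaving out either DMSO library ended a call below, or moved a count of list genes by over 1.5 times, that value is given beside it. In the U-937 pairs the SD of the log2 difference ran from 0.143 to 0.208. Its r with GC content ran from -0.164 to 0.586, highest in the DMSO pair. The labels do not say whether the 2 libraries of a group came from separate cultures, so p-values measure the spread between libraries, which may be technical. In such bulk samples, more cells with a transcript and more transcript per cell cannot be told apart.

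GFI1B was close to undetected in SKNO-1 cells without Corin and clearly present with it. The 2 DMSO libraries held 4 and 0 estimated counts, and the 2 ATRA libraries 3 and 3. With Corin the counts were 150 and 131, and with both agents 274 and 312. Every library with Corin lay far above every library without it, and the libraries with both agents lay above those with Corin alone. On the CPM scale the levels were 0.06 ± 0.0848 (DMSO), 0.0878 ± 0.00641 (ATRA), 4.27 ± 0.316 (Corin) and 9.11 ± 0.630 (both agents; SD, n = 2 in each).

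Differences were tested with edgeR's quasi-likelihood test on the 8 libraries of a line, with Benjamini-Hochberg adjustment over all 17479 genes kept in SKNO-1 and a threshold of 0.05; genes past it are called. GFI1B was kept in the SKNO-1 fit because the libraries with Corin were high, so each test is to be read with the counts. Corin raised GFI1B by 6.11 on the log2 scale (SE 0.490, 95% interval 4.98 to 7.24, adjusted p = 7.6e-05). In that comparison 37.9% of genes were called and 20.5% were called higher, so a call by itself was common. The size was not: 94 of the 17479 genes (0.538%), GFI1B included, rose by as much or more on this scale. By counts, 281 with Corin against 4 with DMSO gave a ratio of 73.6 (95% exact interval 28.4 to 272, covering counting error only).

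The value for Corin depended on the single DMSO library that held all 4 counts. Without it, the fitted log2 change was 10.14 against a group at 0, which is no bound. Without the other DMSO library it was 5.07. GFI1B was called in each case.

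ATRA alone did not shift GFI1B detectably in SKNO-1, where 6 counts stood against 4 (log2 change 0.59, 95% interval -1.66 to 2.84, adjusted p = 0.835 by edgeR, in a comparison that called 6.76% of genes). With both agents GFI1B rose by 7.25 against DMSO (SE 0.465, adjusted p = 1.9e-05, with 46.7% of genes called) and by 6.65 against ATRA alone (SE 0.437, adjusted p = 2.4e-05, with 44.8% called). The change against DMSO also depended on the DMSO library with the 4 counts: it was 11.29 without it, against a group at 0, and 6.22 without the other DMSO library, called in both cases. Against DMSO, 64 of the 17479 genes (0.366%) rose as much. The count ratios were 157 (60.9 to 578) against DMSO and 104 (47.6 to 285) against ATRA.

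With ATRA added to Corin, GFI1B was higher in SKNO-1 than with Corin alone. The 4 libraries did not overlap (150 and 131 counts against 274 and 312). The count ratio was 2.13 (1.85 to 2.47) and the fitted log2 change 1.14 (SE 0.264, 95% interval 0.53 to 1.75, adjusted p = 0.0342 by edgeR), in a comparison that called 10.4% of genes and 4.82% as higher. The direction held without each of the 8 libraries in turn (1.06 to 1.21). The call was lost without either library of the Corin, ATRA or both-agent groups, with edgeR adjusted p between 0.0779 and 0.238, and kept without either DMSO library. The departure of the effect of both agents from the sum of the single effects was 0.54 (SE 1.03, adjusted p = 0.834 by edgeR, with 0.463% of genes called); its 95% interval, -1.83 to 2.92, is wide, and without the DMSO library holding 4 counts the value was -3.46.

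**Figure D1:**
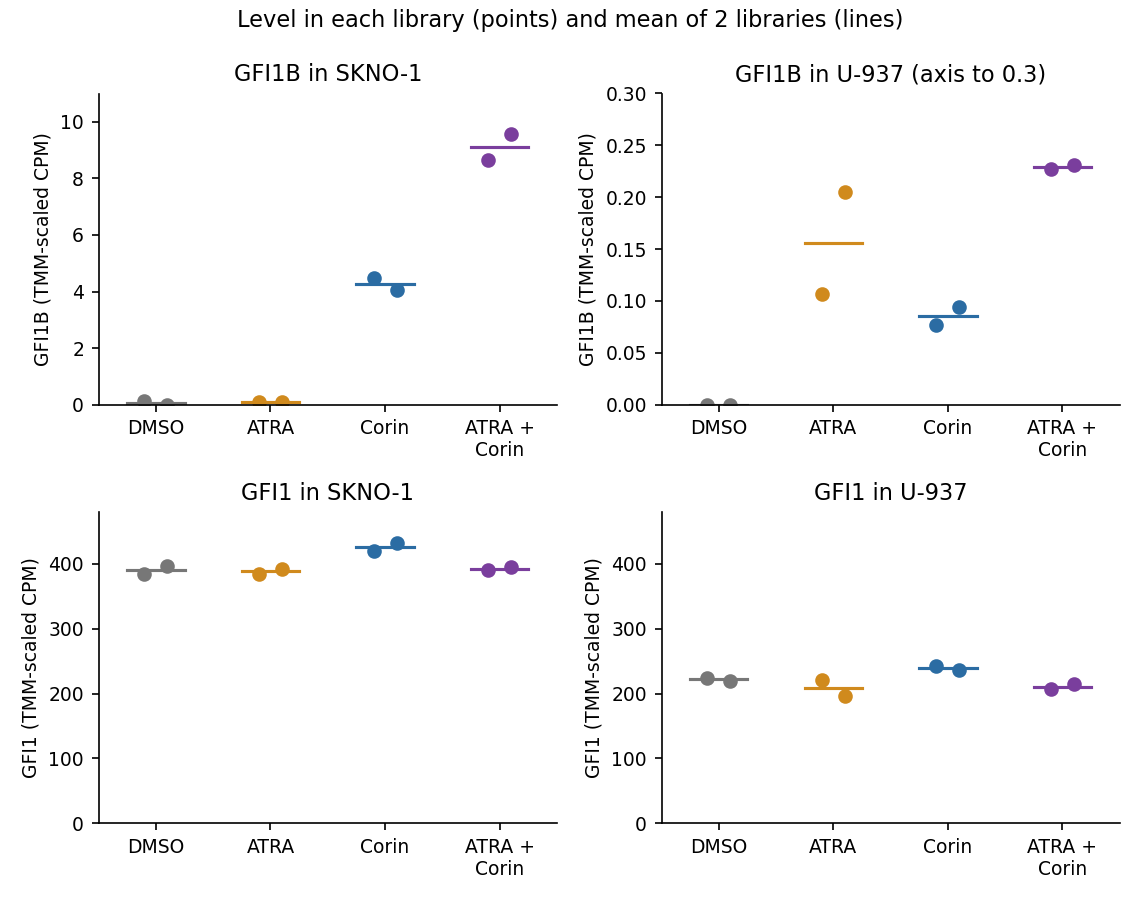
Level of GFI1B (top) and GFI1 (bottom) in every library of SKNO-1 (left) and U-937 (right), in TMM-scaled CPM, by treatment; points are libraries and lines are means of 2. GFI1B reached 4.27 and 9.11 CPM in SKNO-1 with Corin and with both agents, and at most 0.231 CPM in U-937, whose panel has its own axis; GFI1 lay between 197 and 243 CPM in U-937 and between 384 and 432 CPM in SKNO-1.

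U-937 cells had almost no GFI1B under any treatment. The counts were 0 and 0 with DMSO, 4 and 7 with ATRA, 3 and 3 with Corin, and 8 and 7 with both agents. The highest library stood at 0.231 CPM. The gene was too low to be kept in the U-937 fit, so the main test gives no result there. With DMSO set to a floor of 3 counts, the scaled ratio was 3.26 with ATRA, 1.80 with Corin and 4.86 with both agents. These values rest on few reads, leave out the counting error of the treated groups and are no lower bounds. Without the low-count filter, the edgeR adjusted p against DMSO was 0.01305 for ATRA, 0.16 for Corin and 0.00162 for both agents, on 0 to 8 counts a library; DESeq2 gave 0.0181 for both agents and no adjusted p for the single agents. With both agents against Corin the count ratio was 2.70 (95% exact interval 0.992 to 8.51), and against ATRA 1.49 (0.640 to 3.59).

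The lines differed in GFI1B level wherever Corin was present. GFI1B was kept in the fit of all 16 libraries that compares the lines because the SKNO-1 libraries with Corin are high, so the counts are given with each test. With Corin, 281 counts in SKNO-1 stood against 6 in U-937, a scaled ratio of 50.5 (22.9 to 139). With both agents the ratio was 39.8 (23.9 to 71.5). The fitted log2 differences of U-937 from SKNO-1 were -5.59 (SE 0.437, adjusted p = 1.99e-09 by edgeR over 19872 genes, 67.2% called) and -5.29 (SE 0.368, adjusted p = 2.92e-10, 72.5% called). With ATRA alone the counts were 6 and 11, and the difference was 0.79 (SE 0.711, adjusted p = 0.322, 67.5% called). These 3 comparisons of levels were added after the data had been seen. With DMSO the difference was 4 counts against 0 and rested on the 1 SKNO-1 library that held the 4 counts (adjusted p = 0.0411 by edgeR with 64.8% of genes called, but 0.0823 by DESeq2). That call was kept in only 3 of the 15 fits that left out 1 library and gave a value, with adjusted p up to 0.14.

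In order of mean level, GFI1B ran from SKNO-1 with both agents and SKNO-1 with Corin to U-937 with both agents (0.229 CPM) and with ATRA (0.156 CPM), without overlap between neighbours. SKNO-1 with ATRA, U-937 with Corin and SKNO-1 with DMSO followed and overlapped, and U-937 with DMSO was at 0. The lines also differ in medium, since GM-CSF was given to SKNO-1.

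The levels differed, but the response ratios could not be told apart between the lines. The difference in the Corin effect, U-937 minus SKNO-1, was -1.53 on the log2 scale (adjusted p = 0.904 by edgeR, 12.8% of genes called), and that in the effect of both agents was -1.23 (adjusted p = 0.808, 40.6% called). For ATRA it was 4.85 (adjusted p = 0.0707, 19.4% called). Each is a ratio to DMSO groups at 0 and 4 counts, and leaving out single libraries moved the Corin difference between -5.56 and -0.49.

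GFI1, by contrast in level, was abundant in both lines and changed little. In SKNO-1 the 2 libraries of each group stood at 384 and 397 CPM (DMSO), 385 and 393 CPM (ATRA), 420 and 432 CPM (Corin) and 390 and 395 CPM (both agents). Only the Corin libraries lay apart from those of the other groups. In U-937 the values were 224 and 219 CPM (DMSO), 222 and 197 CPM (ATRA), 243 and 237 CPM (Corin) and 207 and 214 CPM (both agents). The Corin libraries were again highest, and the DMSO group overlapped ATRA but not the both-agent group. Every SKNO-1 library exceeded every U-937 library.

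None of the 10 treatment comparisons of GFI1 within a line was called by edgeR, with 1 at an unadjusted p under 0.05 and 0 called by DESeq2. The fitted log2 changes against DMSO in SKNO-1 were 0.03 with ATRA (95% interval -0.08 to 0.14), 0.13 with Corin (0.02 to 0.24, adjusted p = 0.072) and 0.06 with both agents (-0.05 to 0.17). In U-937 they were -0.09 with ATRA (-0.29 to 0.12, 41.8% of genes called), 0.12 with Corin (-0.09 to 0.32, 12.9% called) and -0.07 with both (-0.27 to 0.13, 65.3% called). These comparisons share their DMSO libraries. With both agents against ATRA alone the changes were 0.03 in SKNO-1 and 0.02 in U-937 (47.4% of genes called there), and the U-937 departure from additivity was -0.10 (adjusted p = 0.676 by edgeR, 23.4% called). The rise with Corin in SKNO-1 was called, at 0.10 and 0.11, once either DMSO library was left out, and at 0.20 after the GC trend was removed. With both agents against Corin alone, GFI1 differed by -0.07 in SKNO-1 (adjusted p = 0.357 by edgeR) and -0.19 in U-937 (adjusted p = 0.106, 60.5% called).

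**Figure D2:**
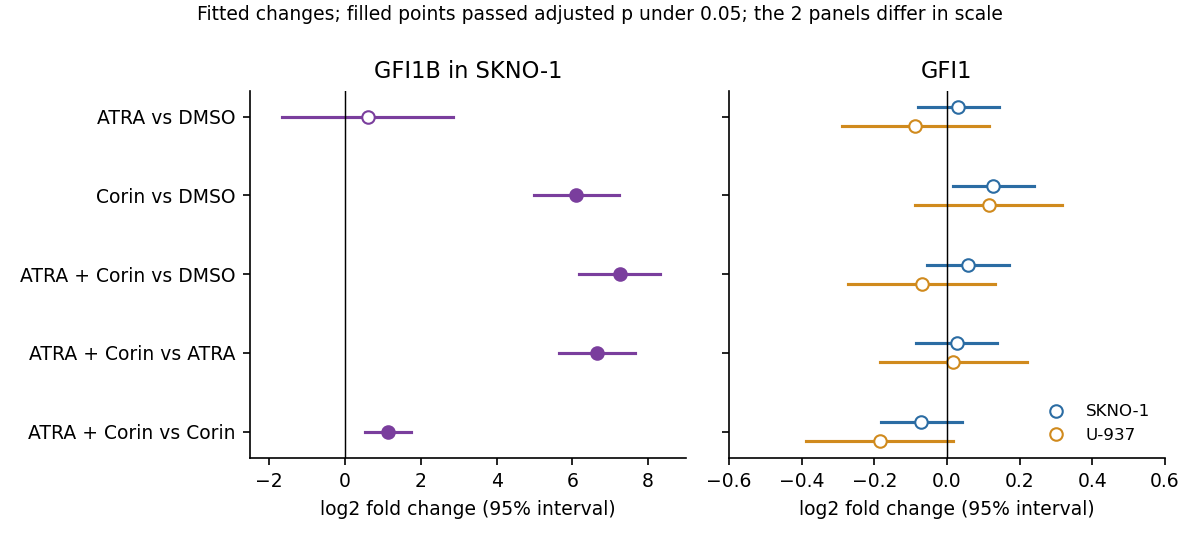
Fitted log2 fold changes (points) with 95% intervals (lines) of GFI1B in SKNO-1 (left) and of GFI1 in both lines (right), by comparison; filled points passed an edgeR adjusted p under 0.05. GFI1B lay between 6.11 and 7.25 in the comparisons of Corin or both agents with DMSO, while the 10 GFI1 values lay between -0.19 and 0.13.

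GFI1 was lower in U-937 than in SKNO-1 under each treatment. U-937 was below SKNO-1 by 0.82 on the log2 scale with DMSO (log2 difference -0.82, SE 0.0804, adjusted p = 3.64e-08 by edgeR). The differences were -0.89 with ATRA, -0.83 with Corin and -0.90 with both agents, each called. The effect of Corin on GFI1 differed between the lines by -0.01 (95% interval -0.25 to 0.22) and that of both agents by -0.08 (-0.32 to 0.15). In order of mean CPM the groups ran from SKNO-1 Corin (426) through SKNO-1 both agents (393), DMSO (391) and ATRA (389) to U-937 Corin (239.8), DMSO (222), both agents (210.5) and ATRA (209). The 3 middle SKNO-1 groups overlapped one another, as did the last 2 U-937 groups.

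Per length, GFI1 outweighed GFI1B in all libraries. Values in TPM, a share of transcripts whose computation divides by transcript length, put GFI1 at 69.8 to 92.1 in SKNO-1 and 41.2 to 67.0 in U-937. GFI1B was at 2.30 and 2.08 TPM in SKNO-1 with Corin and at 3.37 and 4.08 TPM with both agents. GFI1 thus exceeded GFI1B 39.8-fold and 44.3-fold with Corin and 20.7-fold and 19.4-fold with both agents. Without Corin the ratio in the 3 SKNO-1 libraries with any GFI1B ran from 1414 to 2658. By mean TPM, GFI1 stood above 95.2% to 96.6% of the 19975 protein-coding genes in the SKNO-1 groups and above 91.7% to 93.0% in those of U-937. GFI1B stood above 51.3% and 57.9% of them in SKNO-1 with Corin and with both agents, and above 33.2% with DMSO.

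In the authors' deposited table the log2 fold change of GFI1B in SKNO-1 was 6.16 with Corin (adjusted p = 1.36e-11) and 7.27 with both agents (adjusted p = 2.57e-18). In U-937 the authors' deposited table gave GFI1B 5.29 with both agents (adjusted p = 0.0419) and no adjusted p for the single agents. For GFI1 the lowest adjusted p in the authors' deposited table was 0.424 (U-937, ATRA).

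A second readout of GFI1 set the libraries with both agents apart. RSEM reports for each gene a mean transcript length weighted by estimated abundance. For GFI1 it was 3664 to 3710 bases in the 4 libraries with both agents, and 3774 to 4223 bases in the other 12, without overlap. By group the means were 3693 ± 23.7 and 3681 ± 23.9 bases with both agents in SKNO-1 and U-937 (SD, n = 2). With DMSO they were 4009 ± 303 and 4047 ± 38.3 bases. Among 8774 genes that averaged 10 CPM or more and had more than 1 length, 0.707% had these 4 libraries below the other 12 and 0.308% had them above. The main GFI1 transcript has 4554 bases. The shorter coding ones that the authors also counted, of 2855, 2719 and 508 bases, start within the gene. Several mixtures of these can give the same mean length. The length was examined after the values were seen and has no test here. In the SKNO-1 libraries with Corin, the GFI1B mean length was 1733 to 1777 bases. Its coding transcripts have 1604, 1643, 1798 (the main one), 1870 and 2449 bases (the one that begins in the TSC1 overlap), and a mean of that size can come from several mixtures of them.

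**Figure D3:**
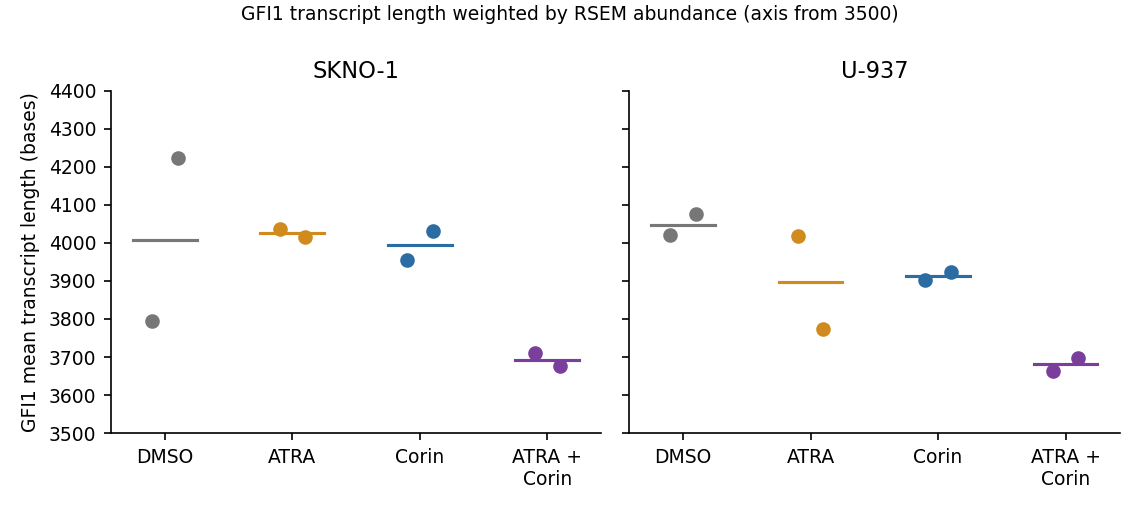
Abundance-weighted mean transcript length of GFI1 as estimated by RSEM, in bases, in each library (points) with group means (lines), by treatment in SKNO-1 (left) and U-937 (right); the axis does not start at 0. The 4 libraries with both agents lie at 3664 to 3710 bases and the other 12 at 3774 to 4223.

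None of the tested genes next to GFI1B was called in SKNO-1 with Corin or with both agents. Of all genes, 37.9% and 46.7% were called there. TSC1, which encodes the tumour suppressor hamartin, stood at 74.9 ± 3.11 CPM with DMSO and 75.7 ± 3.41 CPM with Corin in SKNO-1 (SD, n = 2), a log2 change of 0.02 (SE 0.0655, adjusted p = 0.859 by edgeR). With both agents TSC1 changed by -0.14 (adjusted p = 0.118). GTF3C5, SPACA9 and CEL were also not called in either comparison, with log2 values from 0.01 to 0.42. AK8, the next gene beyond SPACA9, was too low to be tested. Its SKNO-1 libraries held 0 counts with DMSO, 0 and 2 with ATRA, 5 and 7 with Corin, and 5 and 10 with both agents. In U-937 AK8 had 6 and 6 counts with DMSO, 1 and 4 with ATRA, 7 and 8 with Corin, and 1 and 2 with both agents. In U-937 with both agents, TSC1 fell by 0.42 (adjusted p = 0.00113 by edgeR), GTF3C5 by 0.52 (adjusted p = 0.000149) and SPACA9 by 0.70 (adjusted p = 0.0248), while CEL was not called. That comparison called 65.3% of all genes, 32.2% of them all as lower, so such calls were common. MIR548AW, annotated inside GFI1B, was at 0 in all groups.

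Around GFI1 the neighbours moved more than GFI1 itself in SKNO-1. With Corin, EVI5 rose by 0.65 (SE 0.125, adjusted p = 0.00495 by edgeR), GLMN by 0.50 (SE 0.0745, adjusted p = 0.00145) and RPL5, a ribosomal protein gene, by 0.31 (SE 0.0529, adjusted p = 0.00296). RPAP2, next to GFI1, was at 0.28 and missed the threshold (adjusted p = 0.0537). EVI5, the nearest gene on the other side, rose in U-937 as well with Corin (0.38, adjusted p = 0.0444) and with both agents (0.94, adjusted p = 4.6e-07). The other neighbours of GFI1 fell in U-937 with both agents: GLMN by 0.88 (adjusted p = 3.43e-07 by edgeR), RPL5 by 0.47 (adjusted p = 0.0017) and RPAP2 by 0.30 (adjusted p = 0.0157). Of all genes, 20.5% were called higher with Corin in SKNO-1 and 8.55% in U-937. With both agents in U-937, 33.1% were called higher and 32.2% lower.

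**Figure D4:**
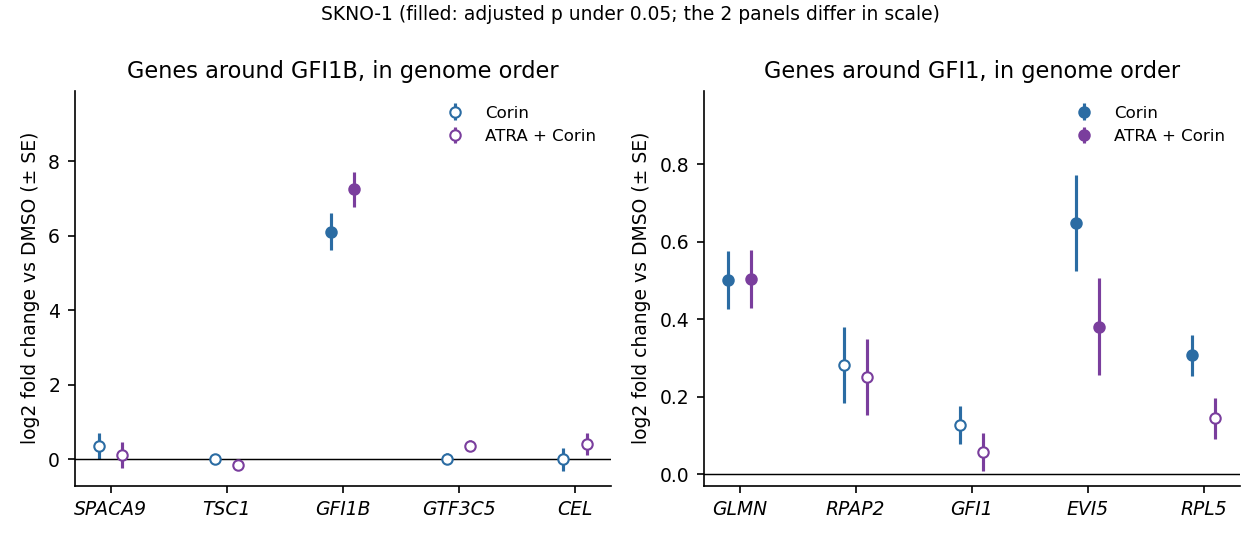
Fitted log2 fold changes against DMSO (points, with SE bars) in SKNO-1 of the genes around GFI1B (left) and GFI1 (right), in their order along the chromosome; the panels differ in scale and filled points passed an edgeR adjusted p under 0.05. GFI1B lies at 6.11 and 7.25 and its tested neighbours between -0.14 and 0.42, while AK8 was too low to be tested. GFI1 lies below EVI5, GLMN and RPL5.

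Of the 9 repressors that share the SNAG domain, 4 were high enough to be tested in each line. In SKNO-1, 3 of the 4 rose with Corin and the same number with both agents: GFI1B, SNAI3 and SNAI1, the fourth being GFI1. Of all genes, 20.5% and 24.7% were called higher in these comparisons. The median log2 change of the 4 with Corin was 1.76, against 0.00 for all genes tested. The counts and the median include GFI1 and GFI1B. GFI1B was kept in the SKNO-1 fit because the libraries with Corin were high, so its call is not independent of its being tested. The count of 3 and the median share that limit, and they describe these 4 genes and not the family. SNAI3, a Snail family member, went from 0.468 ± 0.144 CPM with DMSO to 1.72 ± 0.113 with Corin and 2.72 ± 0.128 with both agents (log2 1.88 and 2.59, adjusted p = 0.0016 and 0.00022 by edgeR). SNAI1, the regulator of epithelial-mesenchymal transition, has a mean under 1 CPM and was named after its values were seen; it changed by 1.64 (adjusted p = 0.0162) and 2.84 (adjusted p = 0.000693). The count with Corin ran from 2 to 4 over the alternatives and was 4 without either SKNO-1 DMSO library, GFI1 being the gene added.

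In U-937 none of the 4 tested SNAG genes was called with Corin by edgeR, with 0 at an unadjusted p under 0.05 and 0 by DESeq2. SNAI3 was already at 2.20 ± 0.00774 CPM with DMSO there, above its SKNO-1 DMSO level (log2 difference 2.23, adjusted p = 4.3e-06 by edgeR), and stood at 2.72 ± 0.470 CPM with Corin. The Corin effect on SNAI3 differed between the lines (U-937 minus SKNO-1, -1.56, SE 0.414, adjusted p = 0.0164 by edgeR). Without 1 SKNO-1 DMSO library that difference was -1.23 and no longer called (adjusted p = 0.0574). The effect of both agents on SNAI3 also differed (-2.04, adjusted p = 0.000435 by edgeR). INSM1, a neuroendocrine SNAG repressor, fell with both agents in U-937 (log2 -1.88) from 0.515 to 0.137 CPM; it was named after its values were seen.

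Of 16 listed cofactors of GFI1 and GFI1B, 16 were high enough to be tested in SKNO-1 and 14 in U-937. KDM1A, which encodes LSD1, stood at 282 ± 4.58 CPM in SKNO-1 and 249 ± 12.5 CPM in U-937 with DMSO (SD, n = 2). In SKNO-1 with Corin, 4 of the 16 cofactor genes rose and 0 fell: AJUBA (0.69), RUNX1 (0.52), RUNX1T1 (0.45) and PHF21A (0.38). Of all genes, 20.5% rose and 17.3% fell there, so the share of cofactors that rose was near that of all genes. KDM1A was at -0.01 and not called. This split was unstable: without 1 SKNO-1 DMSO library it was 6 higher and 4 lower, and without the other 5 and 4. RUNX1T1 was at 0.22 and not called without the first (adjusted p = 0.182 by edgeR). With both agents PHF21A rose (0.32) and KDM1A, RCOR1 and HDAC2 fell by 0.27, 0.33 and 0.26, 1 higher and 3 lower of 16 where 24.7% and 22.0% of all genes were called. Without either SKNO-1 DMSO library in turn that split was 4 and 5, and 2 and 4.

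In U-937 with Corin none of the 14 tested cofactors was called by edgeR, with 5 at an unadjusted p under 0.05 and 1 called by DESeq2. With both agents 4 of 14 rose and 9 fell, against 33.1% and 32.2% of all genes. KDM1A fell by 1.23 there, to 106 ± 7.40 CPM, HDAC2 by 1.00, AJUBA by 0.97 and CBFA2T3, a corepressor of the ETO family, by 1.54. The median of the cofactors was -0.54, against 0.03 for all genes tested.

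Of 11 factors known to bind or act with GFI1B in erythroid and megakaryocytic cells, 7 differed between the lines with DMSO. That comparison called 64.8% of all genes, so the share was near that of all genes. GATA2, a stem and progenitor factor, stood at 29.5 ± 7.33 CPM in SKNO-1 and 0.464 ± 0.271 CPM in U-937 with DMSO (log2 difference -6.00, SE 0.272, adjusted p = 9.9e-13 by edgeR). TAL1, a partner of GATA factors, stood at 38.2 ± 0.213 CPM and 0.0479 ± 0.0250 CPM (log2 difference -9.55, adjusted p = 6.4e-16). GATA1, the main erythroid GATA factor, had a DMSO level of 0.642 ± 0.110 CPM in SKNO-1. Of the 11 genes of this list, 1 was higher and 6 were lower in U-937, against 31.7% and 33.1% of all genes.

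With Corin in SKNO-1, 2 of the 11 rose and 2 fell, against 20.5% and 17.3% of all genes, with a median of -0.06 against 0.00 for all genes. Without 1 SKNO-1 DMSO library the split was 5 and 2, and without the other 2 and 4. ERG rose by 1.24 and GATA2 by 0.49, while KLF1, an erythroid factor, fell by 1.55 and LMO2, the bridging protein of the TAL1 complex, by 1.27. TAL1 was at -0.01 and GATA1 at -0.18, neither called. ATRA alone lowered GATA2 (-1.13) and TAL1 (-0.50), and with both agents, where GFI1B was highest, GATA2 was at -0.15 against DMSO and not called while TAL1, named after its values were seen, fell by 0.49. The Corin effect differed between the lines for LMO2 (U-937 minus SKNO-1, 1.63, SE 0.138, adjusted p = 1.84e-07 by edgeR) and ERG (-1.43, SE 0.175, adjusted p = 1.5e-05). For both agents the difference was larger for ERG (-3.82, SE 0.224, adjusted p = 1.44e-10 by edgeR). It was also called for LMO2 (0.78), LDB1 (0.72), NFE2 (0.59) and LYL1 (-1.09). Of all genes, 12.8% were called for the Corin difference and 40.6% for that of both agents.

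**Figure D5:**
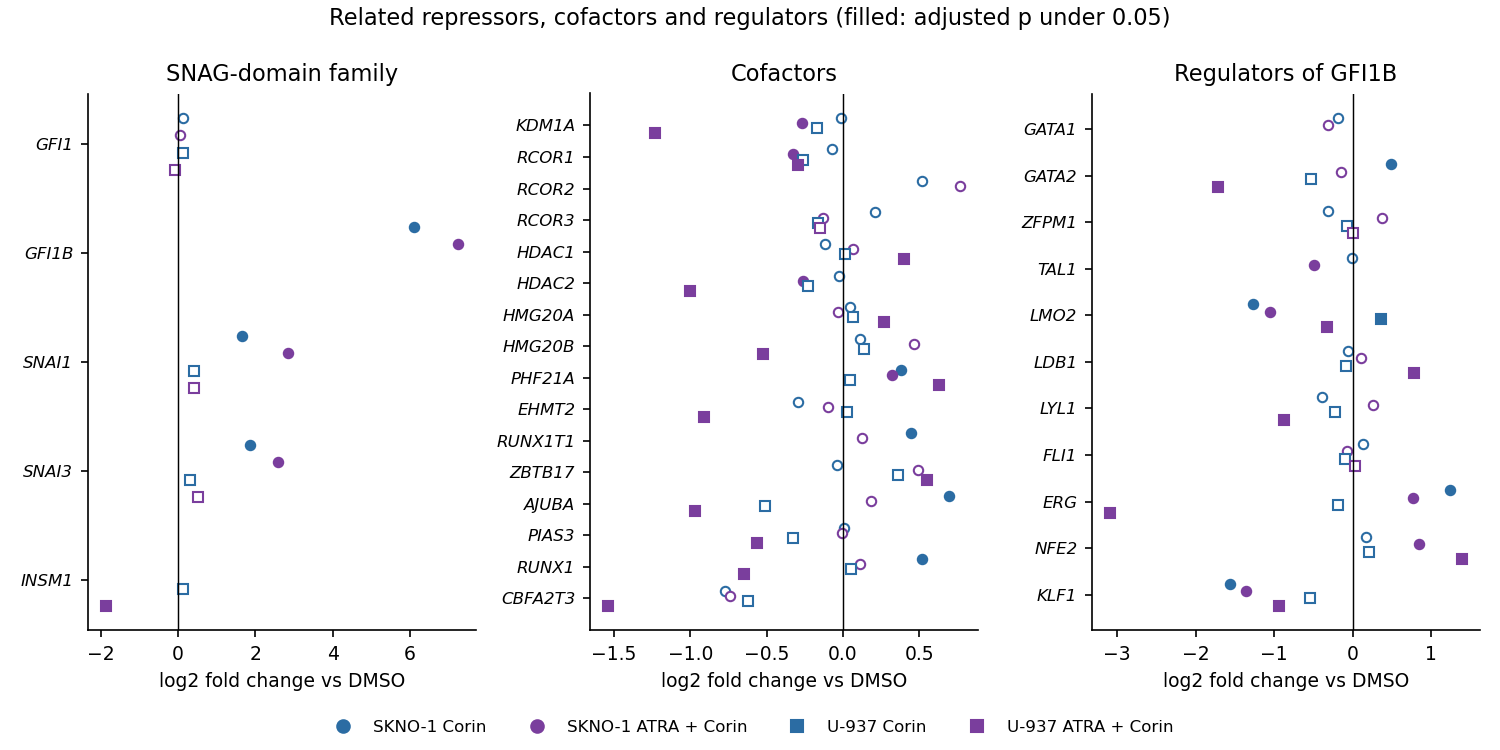
Log2 fold changes against DMSO of SNAG-domain genes, cofactors of GFI1 and GFI1B, and regulators of GFI1B, for Corin (blue) and both agents (purple) in SKNO-1 (circles) and U-937 (squares); filled symbols passed an edgeR adjusted p under 0.05 and genes too low to test are absent. GFI1B at 6.11 and 7.25 exceeds the other genes shown, and KDM1A lies at -1.23 in U-937 with both agents.

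Most markers of erythroid cells were at 0 where GFI1B was present. Of the 10 erythroid markers, 1 could be tested in SKNO-1: EPOR, the erythropoietin receptor, which rose by 0.79 with Corin and 1.06 with both agents. In SKNO-1 with Corin 8 of the 10 were at 0, among them the globin genes HBA1, HBA2, HBB, HBG1 and HBG2. The summed level of the list was 2.85 to 4.86 CPM with DMSO and 6.50 to 6.64 CPM with Corin. The call for EPOR with Corin was lost in most of the fits that left out a library, among them that without 1 of the SKNO-1 DMSO libraries.

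Of the 10 megakaryocyte markers, 2 could be tested in SKNO-1 and 1 of them, ITGA2B, was called with Corin. ITGA2B, the integrin chain of platelets and their precursors, stood at 7.61 and 12.7 CPM with DMSO and 4.31 and 4.58 CPM with ATRA, where it fell by 1.16 (adjusted p = 0.0207 by edgeR). With Corin it reached 37.4 and 37.9 CPM (log2 change 1.89, adjusted p = 0.00039 by edgeR), and with both agents 32.9 and 33.8 CPM (1.76). With both agents against Corin alone the change was -0.13 (adjusted p = 0.696 by edgeR). The summed level of the list was 7.92 to 13.0 CPM with DMSO and 37.9 to 38.3 CPM with Corin, nearly all from ITGA2B, with GP9, GP1BB and PF4 at 0. The part of such cells in the GFI1B level was not tested.

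Monocyte and macrophage markers rose with Corin in both lines, in SKNO-1 9 of 10 tested and in U-937 9 of 9, where 20.5% and 8.55% of all genes were called higher. Their summed level in SKNO-1 was 66.1 to 73.3 CPM with DMSO, 470.0 to 509 CPM with Corin and 578 to 594 CPM with both agents. ITGAM (CD11b) rose by 6.56 with Corin and 8.26 with both agents in SKNO-1, and CD86, a costimulatory ligand, by 5.51 with Corin. In U-937 with Corin, ITGAM rose by 3.55 and CD86 by 4.01, and GFI1B went from 0 to 3 counts a library. Neutrophil granule markers gave 1 higher and 3 lower of 7 tested in SKNO-1 with Corin, where 20.5% and 17.3% of all genes were called. Without 1 SKNO-1 DMSO library that split was 3 and 3, and without the other 1 and 4. The 8 lymphoid markers summed to at most 4.82 CPM there. The part of these markers' cells in the GFI1B level was not tested.

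Genes reported elsewhere as targets of GFI1 or GFI1B changed in both directions. In SKNO-1 with Corin, 7 of 17 tested rose and 5 fell, with a median of -0.07, against 20.5% and 17.3% of all genes. CSF1R, the receptor of macrophage colony-stimulating factor and also on the monocyte list, rose by 3.44, CDKN1A, which encodes the cell cycle inhibitor p21, by 1.97 and ID2 by 1.29. ELANE, which encodes neutrophil elastase, fell by 1.63. With both agents 8 rose and 4 fell (24.7% and 22.0% of all genes did), led by CSF1R (4.96), ID1 (2.43) and SOCS3 (2.02), while EGR1 fell by 2.38.

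The same list in U-937 gave 4 higher and 0 lower of 21 with Corin: CSF1R (3.65), CDKN1A (1.64), ID1 (1.35) and IRF8 (0.52). That comparison called 8.55% of all genes higher and 4.4% lower. With both agents 12 rose and 7 fell, where 33.1% and 32.2% of all genes did. With DMSO, CSF1R was at 0.348 ± 0.0259 CPM (SKNO-1) and 0.775 ± 0.155 CPM (U-937), and it averaged 10.6 and 30.1 CPM with both agents (SD, n = 2).

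Likeness of pattern was measured as Pearson's r of log2 CPM across libraries, among protein-coding genes averaging 1 CPM or more, and is a description only. In the 8 SKNO-1 libraries the genes most like GFI1B were PIK3IP1 (0.998), BCAR3 (0.998), IFI30 (0.997), RNF157 (0.997) and NLRC3 (0.997), out of 11444. As many as 536 genes reached 0.95; the libraries fall into those with and those without Corin. Across all 16 libraries only 3 genes did: KCTD17 (0.974), GSTO2 (0.964) and SELENOP (0.951).

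For GFI1 the most alike genes within SKNO-1 were TMEM242 (0.965) and C4orf33 (0.960), followed by TCTN1, KLRG1 and TTC9, over a GFI1 range of 0.15 on the log2 scale. Within U-937 they were FITM2 (0.970) and CACNA1C (0.964), followed by PAQR8, SPATA24 and DNAH8, over a range of 0.31. Across the 16 libraries 890 genes reached 0.95, led by FANCF (0.994); GFI1 separates the lines.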

How the data were processed

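RNA from 16 libraries was analysed, 2 for each of 8 groups named by the labels. Per the submitters' processing notes, the authors used Trimmomatic, STAR, RSEM, deepTools and DESeq2 with the build hg38; versions, annotation release and strand setting are not given in the sources used here. Per the labels' protocols the libraries were stranded total RNA with added ERCC RNA, for which the count table has no rows. The deposited values used are RSEM estimated counts per gene, deposited TPM, and the deposited mean transcript length in bases; 20.4% of positive estimated counts were not whole, and they were rounded. The authors' deposited comparison tables give log2 fold changes and adjusted p-values.

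From the counts, edgeR 4.0.16 in R 4.3.3 gave TMM scaling, low-count filtering (filterByExpr) and robust quasi-likelihood tests, per line (17479 genes in SKNO-1, 17717 in U-937) or over all libraries (19872), with adjustment over all genes. DESeq2 1.42.0 was an alternative. CPM are TMM-scaled over 16 libraries. Library totals were 28414479 to 37817314 estimated counts. Where a group is at 0, a floor of 3 counts over the group was used. Intervals on count ratios are exact at 95% and cover counting error only. The fit was tested on simulated data.

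The members and lists were chosen with earlier results of these data known. From each list up to 4 genes per comparison are named: the largest changes among those called, with a mean of at least 1 CPM and no overlap between groups; neighbours are the 2 nearest protein-coding genes on each side, and patterns name the 5 most alike genes. Identifiers matched GENCODE release 44 for 60306 of 60603 rows. Both members matched RefSeq promoter windows. Protein sequences were not used here.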

Additional observations from a re-analysis of the deposited data

Results flagged for a closer look

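Among the SNAG-domain genes and the factors that act with GFI1B, the responses below differed between the lines by a test of the difference itself, U-937 minus SKNO-1, with edgeR over all 16 libraries. The Corin effect differed for LMO2 by 1.63, for ERG by -1.43 and for SNAI3 by -1.56 on the log2 scale; the SNAI3 call was lost without 1 SKNO-1 DMSO library (-1.23, adjusted p = 0.0574). The effect of both agents differed for ERG by -3.82, for SNAI1 by -2.38, for SNAI3 by -2.04, for LYL1 by -1.09, for LMO2 by 0.78, for LDB1 by 0.72 and for NFE2 by 0.59. The NFE2 call was lost without 1 SKNO-1 DMSO library (0.31, adjusted p = 0.125), and the LYL1 call was kept in 5 of the 16 fits that left out 1 library, with values from -1.70 to -0.66. The ATRA effect also differed, for ERG by -1.18, for LMO2 by -0.74 and for NFE2 by 0.66. That NFE2 call was lost without 1 SKNO-1 DMSO library. Of all genes, 12.8% were called for the Corin difference, 40.6% for that of both agents and 19.4% for that of ATRA. None of the differences for GFI1 or GFI1B themselves was called.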

How the results depend on the processing

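Besides the tests reported, 230 values were recomputed with other scaling (RLE, library totals), no low-count filter, DESeq2, a replicate block, removal of the GC trend, 1 fit of all 16 libraries or only the libraries compared, and 367 with a library left out. Of the 230, 211 kept direction and side of the threshold, 4 lost their call, 3 gained one and 12 changed sign; of the 367 these numbers were 331, 18, 3 and 15. GFI1B stayed called in SKNO-1 for Corin and for both agents, against DMSO or ATRA, under every alternative run.

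The replicate numbers do not pair the libraries: the differences of replicate 1 from 2 correlated between groups from -0.49 to 0.42 over genes. With a replicate block, GFI1B with both agents against Corin in SKNO-1 was 1.14 with adjusted p = 0.0689; the block changed no other call. Left-out libraries gave 1.06 to 1.21 there.

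The difference of GFI1B between the lines with DMSO lost its call with library totals (-3.99), without filter (-4.06) and with DESeq2 (-3.30), and ran from -5.04 to -4.02 with a library left out, called in 3 of those 15 fits (adjusted p up to 0.14).

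GC-trend removal gave called values for GFI1 of 0.20 (SKNO-1, Corin) and -0.20 (U-937, ATRA), and library totals one of -0.32 (U-937, both agents against Corin).

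Values of GFI1 near 0 changed sign. For ATRA in SKNO-1 they were -0.0046 (RLE), -0.0102 (no filter), -0.0063 (DESeq2), -0.0003 (GC trend) and -0.0074 (16 libraries). GC-trend removal gave -0.0229 (both against DMSO) and -0.0226 (both against ATRA) in SKNO-1, 0.11 for the departure from additivity in U-937, and 0.0612 for the effect of both agents between the lines. For both against ATRA in U-937 they were -0.0367 (library totals), -0.0017 (no filter) and -0.0013 (only the libraries compared).

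With a library left out, the ranges were, for GFI1, -0.0282 to 0.0316 (ATRA, SKNO-1), 0.10 to 0.14 (Corin, SKNO-1), -0.0632 to 0.0957 (both against ATRA, U-937) and -0.0204 to 0.0286 (Corin effect between the lines). For GFI1B they were -0.46 to 4.60 (ATRA, SKNO-1), -3.46 to 1.61 (additivity, SKNO-1) and 0.78 to 5.81 (ATRA effect between the lines), called (adjusted p = 0.0112) without the SKNO-1 DMSO library at 0 GFI1B counts. Among the other genes named, the calls of RUNX1T1 and EPOR (SKNO-1, Corin) were kept in 1 of the 8 fits without a library, and those of GATA2 (SKNO-1, Corin), PHF21A (SKNO-1, both agents), ITGA2B (SKNO-1, ATRA) and EVI5 (U-937, Corin) in 2 of 8, with the direction unchanged. The cause of these changes was not tested.

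Shares of genes called ranged widely over the alternatives: for ATRA in SKNO-1 from 1.51% to 29.1%, for Corin from 19.9% to 52.1%, for both against Corin from 2.19% to 43.6% and for additivity from 0.0384% to 30.9%. Depth limits GFI1B: 3 counts over a group correspond to 0.0419 to 0.0472 CPM.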
